A study of Mus musculus with 9 samples.

Results

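Small leucine-rich proteoglycans are secreted matrix proteins, and the transcripts of 10 of their genes were followed in quadriceps muscle and heart of mice after sham surgery and in quadriceps of mice with pressure overload of the heart. The genes were chosen by name: Dcn, Bgn, Aspn, Lum, Fmod, Prelp, Kera, Omd, Ogn and Podn. All 10 are among the 24537 gene names of the heart comparison, with 14 of its 35745 RefSeq transcripts. The table for the TAC comparison is limited to 587 genes, selected by the study for an extracellular Gene Ontology term and given by 1 transcript each, and 7 of the 10 are in it. Aspn, Kera and Omd were therefore not analysed here in TAC quadriceps.

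C57Bl6 mice, by the study's methods of the substrain C57Bl/6JCrl, were operated at the age of 8 weeks and RNA was taken 12 weeks later. Transverse aortic constriction (TAC) narrows the aorta around a 27 gauge needle so that the left ventricle pumps against a raised pressure, and the TAC mice of the study carried a label of cachexia, the wasting of muscle and fat. Sham surgery was the control. The 9 libraries form 3 groups of 3, which are sham heart, sham quadriceps and TAC quadriceps, and the same 3 sham quadriceps libraries stand in both comparisons. The comparison with TAC asked how secreted-protein genes differ in wasting muscle, and the comparison with heart asked which of them are expressed more in muscle. The library of TAC quadriceps called 4 in the table belongs to the TAC group by its name, while the sample labels number the TAC samples 1 to 3.

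Small leucine-rich proteoglycans share a core of leucine-rich repeats, and most carry glycosaminoglycan chains. Decorin (Dcn), biglycan (Bgn) and asporin (Aspn) form one class, with chondroitin or dermatan sulfate on decorin and biglycan. Lumican (Lum), fibromodulin (Fmod), PRELP, keratocan (Kera) and osteomodulin (Omd) form the next, where keratan sulfate and sulfated tyrosines are common. Osteoglycin (Ogn) and podocan (Podn) belong to further classes. The proteins bind fibrillar collagens and limit or guide the width of fibrils, and several also bind TGF-beta or Toll-like receptors. In muscle and heart they are made mainly by fibroblasts of the connective tissue and by tendon cells. In bulk tissue, fewer cells of a type and less RNA per cell cannot be told apart.

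Most of the genes lie in clusters of the mouse genome (GRCm38, mm10, positions of the GENCODE annotation). Dcn (chr10:97479609-97518143, plus strand, 8 exons), Lum (chr10:97565128-97572703, plus strand, 3 exons) and Kera (chr10:97606879-97613692, plus strand, 3 exons) follow each other at distances of 47.0 and 34.2 kb. Aspn (chr13:49544443-49567565), Omd (chr13:49582462-49592822) and Ogn (chr13:49608046-49624501), all on the plus strand, are 14.9 and 15.2 kb apart. Prelp (chr1:133910304-133921414, minus strand) and Fmod (chr1:134037254-134048277, plus strand) are 115.8 kb apart. Bgn (chrX:73483602-73495933, plus strand) and Podn (chr4:108014791-108096445, minus strand) stand alone. Counts were made over exons of RefSeq transcripts, and the strand setting of the counting is not given in the sources used here. Aspn, Omd and Ogn overlap Cenpp on the opposite strand, which had 18 to 56 counts per library in the table with heart. Prelp overlaps Gm15851 on the opposite strand, and the annotated span of Podn reaches over Scp2 on its own strand.

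The promoter windows of 4 members are printed because the levels of Fmod, Kera and Bgn differ most between the tissues or the operations among the members that have a window, and because Ogn spreads widely between the sham muscles. Each window runs from 250 bases before to 50 bases after the RefSeq start (GRCm38.p6), and RefSeq had such a window for 8 of the 10 members. The RefSeq start of Kera lies 326 bases downstream of the GENCODE gene start given above, so that its whole window is inside the gene by that annotation, and the RefSeq starts of Podn also lie inside its GENCODE span. Capitals mark matches on either strand to TATAAA (the TATA box), to CCAAT (the box bound by NF-Y), to CANNTG (the E-box bound by muscle and other bHLH factors), to TGANTCA (the AP-1 site) and to GGGCGG (the GC box), and neighbouring matches can overlap.
Fmod promoter, chr1:134037004-134037303, plus strand: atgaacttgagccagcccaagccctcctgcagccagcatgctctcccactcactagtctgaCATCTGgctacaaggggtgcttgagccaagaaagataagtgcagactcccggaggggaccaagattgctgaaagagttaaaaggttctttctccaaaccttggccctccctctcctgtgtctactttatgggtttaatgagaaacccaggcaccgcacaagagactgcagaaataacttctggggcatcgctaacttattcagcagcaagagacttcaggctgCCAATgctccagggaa
Kera promoter, chr10:97606955-97607254, plus strand: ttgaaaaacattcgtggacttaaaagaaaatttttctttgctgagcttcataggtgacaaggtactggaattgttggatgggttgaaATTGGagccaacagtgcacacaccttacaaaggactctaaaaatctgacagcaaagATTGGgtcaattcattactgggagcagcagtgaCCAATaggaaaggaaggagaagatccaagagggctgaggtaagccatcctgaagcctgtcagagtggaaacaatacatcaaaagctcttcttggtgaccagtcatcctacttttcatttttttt
Bgn promoter, chrX:73483351-73483650, plus strand: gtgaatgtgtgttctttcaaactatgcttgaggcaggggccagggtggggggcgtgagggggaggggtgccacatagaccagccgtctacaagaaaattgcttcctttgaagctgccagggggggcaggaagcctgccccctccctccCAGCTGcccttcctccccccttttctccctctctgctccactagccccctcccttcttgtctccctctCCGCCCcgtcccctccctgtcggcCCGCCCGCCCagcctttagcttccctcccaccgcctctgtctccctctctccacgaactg
Ogn promoter, chr13:49607765-49608064, plus strand: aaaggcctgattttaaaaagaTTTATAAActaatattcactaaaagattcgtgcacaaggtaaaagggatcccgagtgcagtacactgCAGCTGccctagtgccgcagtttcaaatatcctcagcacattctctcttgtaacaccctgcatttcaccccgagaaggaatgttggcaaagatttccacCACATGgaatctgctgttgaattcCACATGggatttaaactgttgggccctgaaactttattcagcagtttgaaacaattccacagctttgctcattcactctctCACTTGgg

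CCAAT, present in 37.4% of all 32851 promoter windows, was in the windows of Fmod, Kera, Prelp and Aspn. Of these, Fmod and Kera were higher in quadriceps than in heart, Prelp was lower, and Aspn did not pass the test. Kera had 3 matches, beginning 163, 107 and 74 bases before the RefSeq start, and the match of Fmod began 34 bases after its start. Bgn had 3 matches to GGGCGG (35.7% of all windows), of which the last 2 overlap, and a GC content of 63.7% against a median of 52.7%. Ogn had 2 overlapping matches to TATAAA (13.6% of all windows) beginning 229 and 227 bases before the start, and 4 matches to CANNTG (72.3% of all windows). TGANTCA, found in 7.81% of all windows, was not among the letters of any member's window. The windows of Aspn and Omd were the poorest in G and C, at 31.0% and 37.7%, and a window of Podn was the richest at 77.0%.

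Total counts were 33102826 to 38382751 per library in sham heart and 23383452 to 32989108 in sham quadriceps. The TAC libraries with a known total held 48614494 and 48999600, so that depth and operation cannot be told apart. The tissue labels were checked on myosin heavy chains, and the cardiac Myh6 had at least 768767 counts in each heart library and at most 82 in each quadriceps library. In the TAC table, 689630 to 1326011 counts per library fall on the listed genes. No pair of replicates agreed within sampling noise (chi-square of 7.10 or more per degree of freedom). The study calls its replicates biological, and no label says that each came from another mouse, so the p-values measure the spread between these samples.

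In TAC quadriceps, the transcripts of lumican and biglycan were lower than in sham quadriceps, while those of decorin, by far the most abundant member, and osteoglycin did not pass the test. Raw counts were tested in edgeR by quasi-likelihood with TMM scaling over the listed genes, and p-values were adjusted by Benjamini-Hochberg over the 586 genes tested. The levels are given as normalized counts, which are counts divided by each library's relative size after that scaling. Of the 7 members in the table, 2 were lower and 0 were higher at an adjusted p under 0.05, against 11.9% lower and 17.7% higher among all genes tested. None was higher at an unadjusted p under 0.05 in edgeR either (0 of 7), nor by DESeq2 at an adjusted p under 0.05 (0 of 7). Scaling by library totals needs RPKM values and so leaves out TAC library 4, and by it 5 of the 7 were lower, against 30.7% of all genes, and 0 were higher, against 3.41%. With TMM over the same libraries, 3 were lower and 0 higher. The share of all genes was not taken at that setting, so these numbers cannot be set against it. The median log2 fold change of all genes was 0.03 with TMM, -0.08 with TMM without TAC library 4 and -0.63 with library totals. Of the 7 members, 4 had every TAC library below every sham library with TMM, as did 21.2% of all genes.

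Lumican, a keratan sulfate proteoglycan that regulates the spacing of collagen fibrils, had the largest fitted difference of the 7 members, although without TAC library 1 that of biglycan was larger (-2.40 against -2.23 on the log2 scale). Lum was at 745, 538 and 525 normalized counts in sham quadriceps libraries 1, 2 and 3 and at 88.1, 165 and 104 in TAC libraries 1, 2 and 4. The highest TAC library was thus far below the lowest sham library. The means were 602 ± 123 and 119 ± 40.8 normalized counts (SD, n = 3 each), which is -2.34 on the log2 scale (standard error, SE, 0.31, adjusted p = 0.00288 by edgeR's quasi-likelihood test). The value was -2.92 when scaled by library totals.

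Biglycan, which binds collagen and, once released, Toll-like receptors of macrophages, was lower to a similar degree. Bgn was at 1720, 1560 and 1994 normalized counts in the sham libraries and at 502, 499 and 205 in the TAC libraries. All TAC libraries lay below all sham libraries, and TAC library 4 was the lowest. The means were 1758 ± 219 and 402 ± 170 normalized counts (SD, n = 3 each), with a log2 fold change of -2.13 (SE 0.35, adjusted p = 0.00664 by edgeR's quasi-likelihood test). Library totals gave -2.46.

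Decorin, which binds and neutralizes TGF-beta and sets the width of collagen fibrils, is the nearest relative of biglycan in the family. Dcn was at 7443, 6005 and 5974 normalized counts in sham and at 7898, 5382 and 8623 in TAC quadriceps. The groups overlapped, with TAC library 2 the lowest and TAC library 4 the highest of the 6. The log2 fold change was 0.17, with a 95% interval from -0.36 to 0.71 (adjusted p = 0.601 by edgeR's quasi-likelihood test). Its sign turned without TAC library 4, to -0.04 with TMM and to -0.62 with library totals (adjusted p = 0.116 by the same test), a value close to the median of all genes with that scaling.

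Fibromodulin, which modulates collagen crosslinking in tendon, was at 701, 866 and 967 normalized counts in sham and at 581, 466 and 600 in TAC quadriceps. The groups did not overlap, but the log2 fold change of -0.62 (SE 0.22) gave an adjusted p of 0.0660 by edgeR's quasi-likelihood test. Prelp, which anchors basement membranes to collagen, was at 571, 578 and 580 normalized counts in sham and at 441, 245 and 422 in TAC quadriceps. The sham libraries were nearly equal and the TAC libraries all lower, with a log2 fold change of -0.64 (SE 0.27, adjusted p = 0.101 by the same test). With library totals, and so without TAC library 4, both passed the same test, Fmod at -1.32 (adjusted p = 0.00898) and Prelp at -1.39 (adjusted p = 0.0173).

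Osteoglycin, also called mimecan, had the widest relative spread between sham libraries of the 7 members in the TAC table (coefficient of variation 49.2%). Ogn was at 1435, 536 and 826 normalized counts in sham and at 860, 1090 and 651 in TAC quadriceps, so that the groups overlapped fully. Its log2 fold change was -0.11, with a 95% interval from -0.94 to 0.73 (adjusted p = 0.852 by edgeR's quasi-likelihood test), and it was 0.31 without sham quadriceps library 1. Podocan, the least abundant of the 7, was at 141, 129 and 131 normalized counts in sham and at 77.5, 84.2 and 159 in TAC quadriceps. TAC libraries 1 and 2 lay below all sham libraries and TAC library 4 above them. Podn had a log2 fold change of -0.32 (SE 0.32, adjusted p = 0.476 by edgeR's quasi-likelihood test), which was -0.82 without TAC library 4 (adjusted p = 0.0403) and -1.38 with library totals (adjusted p = 0.0135).

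**Figure D1:**
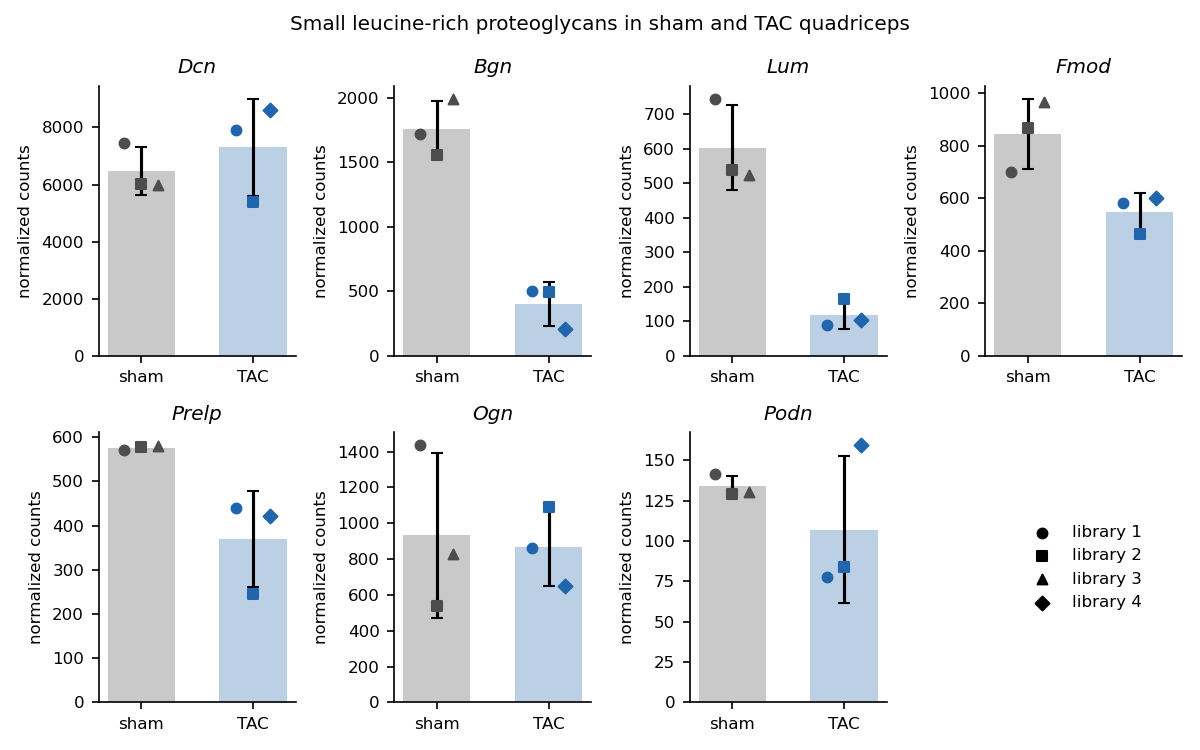
Normalized counts (TMM over the listed genes, axes from 0) of the 7 members in the TAC table. Bars are means of 3 libraries, error bars are SD and symbols mark the single libraries. The TAC libraries of Lum (88.1 to 165) and Bgn (205 to 502) lie far below the sham libraries, while Dcn and Ogn overlap.

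The make-up of the family within a library does not depend on how libraries are scaled. Counts per transcript length were used for it, so that the members can be set side by side. Decorin took 62.0% to 66.4% of the summed counts per length of the 7 members in the sham quadriceps libraries and 74.6% to 85.7% in the TAC libraries. Biglycan took 11.8% to 16.1% in sham and 1.59% to 5.38% in TAC quadriceps. Lumican took 4.95% to 5.94% in sham and 0.827% to 2.08% in TAC quadriceps. Osteoglycin overlapped, at 4.39% to 9.36% and 4.80% to 11.2%.

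Relative to decorin in the same library, 5 of the other 6 members had every TAC ratio below every sham ratio, as did 19.8% of the 586 genes. The ratio of Lum to Dcn was 0.0907, 0.0812 and 0.0797 in sham libraries 1, 2 and 3 and 0.0101, 0.0279 and 0.0110 in TAC libraries 1, 2 and 4, a difference of -2.52 on the log2 scale. The ratio of Bgn to Dcn was 0.180, 0.202 and 0.260 in sham and 0.0494, 0.0721 and 0.0185 in TAC quadriceps, a log2 difference of -2.39. For Fmod, Prelp and Podn the log2 differences were -0.77, -0.84 and -0.55, and for Ogn, whose groups overlapped, it was -0.17. With 3 against 3 libraries an exact two-sided permutation test cannot go below p = 0.1, which these 5 ratios reached (adjusted p = 0.127 over the 14 ratios tested in both comparisons), and Ogn gave p = 0.8 by the same exact test. Relative to the sum of the 7 members in place of decorin, 3 of these 6 (Lum, Bgn and Prelp) had every TAC ratio below every sham ratio, as did 14.2% of all genes, and 0 had every TAC ratio above, as did 27.6%. By that measure Fmod (log2 difference -0.45, exact permutation p = 0.2) and Podn (-0.24, p = 0.6) overlapped, and Ogn was at 0.15.

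Of the lists of partners in the TAC table, that of collagens was the longest. Of 12 collagen genes that the proteoglycans bind or that share their fibrils, 11 were lower in TAC quadriceps, against 11.9% of all genes, and 0 were higher, with a median log2 fold change of -1.67 against 0.03 for all genes. Among them, Col3a1, Col1a1 and Col1a2 had log2 fold changes of -3.95, -3.31 and -2.51. Of 5 collagen crosslinking enzymes, 1 was lower, the lysyl oxidase Loxl2 at -1.52 (list median 0.11). Of 5 proteases and protease enhancers that act on collagens or on the family, 1 was lower, the procollagen C-proteinase enhancer Pcolce at -1.01 (list median -0.59). Chad, or chondroadherin, the sole gene of another list of 8 leucine-rich matrix proteins in the table, was lower as well. It had 101, 72 and 93 counts in sham and 47, 33 and 31 in TAC quadriceps and a log2 fold change of -1.37 (adjusted p = 0.0166 by edgeR's quasi-likelihood test).

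Genes on the side of chains and ligands were few in the TAC comparison, and some were higher. Of 3 genes on the list of glycosaminoglycan chain enzymes, 1 was higher in TAC quadriceps, against 17.7% of all genes. It was the galactosyltransferase B4galt1 at 1.77 (list median 0.51). Xylt2 at 0.51 and Fam20b at 0.08 did not pass. Of 6 growth factors and receptors that members bind, 3 were higher, against 17.7% of all genes, and 0 were lower, against 11.9% (list median 0.57). These were Mstn, the muscle growth inhibitor myostatin, at a log2 fold change of 1.37, the hepatocyte growth factor receptor Met at 1.32 and Bmp4 at 0.79. None of these 3 passed with library totals, where their log2 fold changes were 1.06, 0.72 and 0.16 (adjusted p from 0.0531 to 0.644 by edgeR's quasi-likelihood test), while B4galt1 did at 1.22.

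Some markers of connective tissue cells were lower beside these results. Of 7 fibroblast markers in the TAC table, 4 were lower, against 11.9% of all genes, and 0 higher (list median -0.98), among them Col15a1 at -2.09, Pi16 at -1.81 and Dpt at -1.34. Clec3b at -0.69, Smoc2 at 0.14 and Gsn at 0.36 did not pass. The summed level of the 7 was 6616 to 7258 CPM, which are counts relative to the size of the library, here that of the TMM-scaled listed counts, in sham and 4955 to 9636 in TAC quadriceps, so that the groups overlapped. Gsn made up the largest part of that sum, at means of 4368 and 5624 normalized counts in sham and TAC quadriceps. The sum was not taken without Gsn. Of 3 tenocyte markers, 1 was lower, Thbs4 at -1.38, while Comp at -0.80 and Col22a1 at 0.52 did not pass (list median -0.80), with a sum of 2406 to 2742 in sham and 1133 to 1300 in TAC quadriceps. Thbs4 held most of that sum, at means of 2504 and 962 normalized counts in sham and TAC quadriceps. Comp was at 62.4 and 35.9, and Col22a1 at 196 and 280. The macrophage complement genes C1qc and C1qa were lower at -1.41 and -0.89 (2 of 3 macrophage markers, sum 227 to 258 in sham and 109 to 145 in TAC quadriceps), and the endothelial Pecam1 was higher at 0.63 (-0.02 with library totals, sum 710 to 792 in sham and 1086 to 1193 in TAC quadriceps). None of 3 adipocyte, 3 blood and 1 muscle fibre markers passed, and the adipocyte sum ranged from 299 to 2184 in sham and from 394 to 2714 in TAC quadriceps. The blood sum was 1573 to 1872 in sham and 467 to 2591 in TAC quadriceps. The part of these cells in the lower lumican and biglycan was not tested, and cardiomyocyte, smooth muscle and Schwann cell markers are not in the TAC table.

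By mean RPKM, decorin, biglycan, osteoglycin and lumican were in this order the most abundant members in both sham heart and sham quadriceps. In sham quadriceps, keratocan and fibromodulin were higher than in sham heart, fibromodulin by a factor of 13.9, whereas biglycan, osteoglycin, PRELP, lumican and podocan were lower, by factors of 1.43 to 2.53. Over the 24280 transcripts tested by edgeR's quasi-likelihood test after TMM scaling, 2 of the 10 members were higher, against 32.2% of all transcripts, and 5 were lower, against 34.4%. These numbers are not read as particular to the family. Each gene stands here with its transcript of the highest mean count. With library totals 2 were higher, against 13.3%, and 7 lower, against 62.6%, and the median log2 fold change of all transcripts moved from -0.06 to -0.80. Dcn and Aspn are the 2 members added by that scaling.

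Per transcript length, decorin led the family in both tissues. Dcn was at 221, 224 and 207 RPKM in heart and at 149, 96.0 and 99.0 RPKM in quadriceps. The order in heart went on with Bgn (89.7 ± 9.81 RPKM, SD, n = 3), Ogn (52.5 ± 5.57), Lum (34.2 ± 4.02), Prelp (19.1 ± 3.09) and Aspn (14.8 ± 1.63). Podn (3.29 ± 0.61), Fmod (1.16 ± 0.72), Omd (0.86 ± 0.35) and Kera (0.022 ± 0.028) followed. In heart the ranges of neighbours did not overlap, apart from those of Prelp and Aspn, and of Fmod and Omd.

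In quadriceps the order after decorin was Bgn (24.0 ± 4.01 RPKM, SD, n = 3), Ogn (12.6 ± 7.80), Lum (9.75 ± 3.30), Fmod (9.63 ± 0.78), Kera (7.22 ± 2.55), Aspn (6.22 ± 3.76) and Prelp (5.27 ± 0.62). Podn (1.37 ± 0.24) and Omd (0.92 ± 0.78) came last. From Bgn to Prelp, and for Podn and Omd, the ranges of neighbours overlapped, so that the order of neighbours is not separated by their ranges. Some members further apart did not overlap. Bgn, at 19.4 RPKM or more, lay above Lum, at 13.6 or less, and Fmod, at 9.10 or more, above Prelp, at 5.98 or less. Fmod and Kera, near the bottom of the list in heart, stood among this middle group in muscle.

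**Figure D2:**
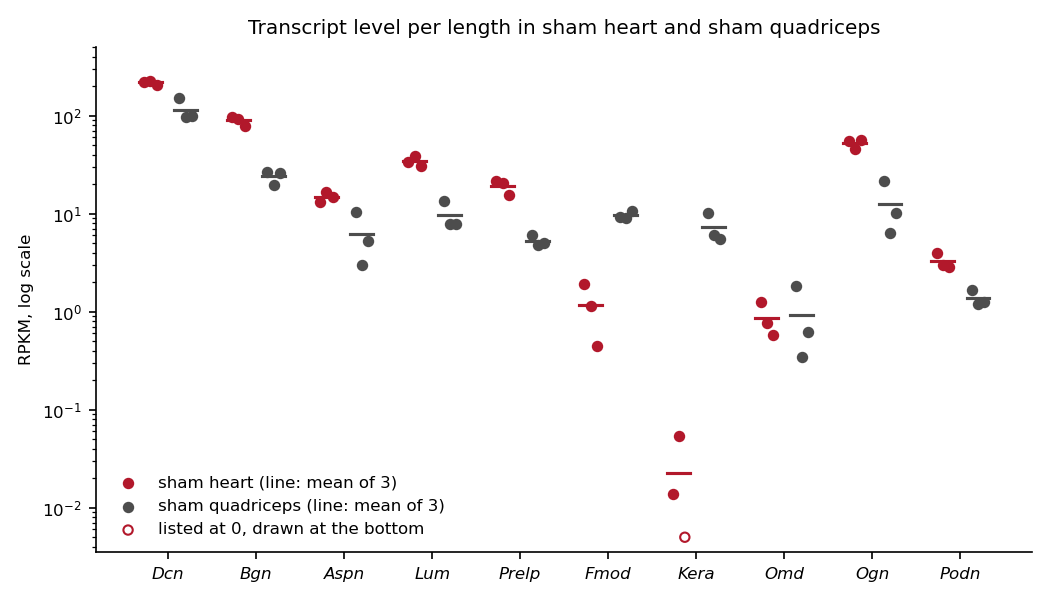
RPKM as deposited (log scale) of the 10 members in 3 sham heart and 3 sham quadriceps libraries, ordered by class, with a short line at each mean of 3. Fmod and Kera are the members whose quadriceps libraries all lie above the heart libraries, and the heart library listed at 0 for Kera is drawn as an open circle at the bottom.

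Keratocan, a keratan sulfate proteoglycan best known from the cornea and also found in tendon, was near the limit of detection in heart. Heart libraries 1, 2 and 3 held 1, 4 and 0 counts of Kera, against 644, 389 and 248 counts in quadriceps libraries 1, 2 and 3. The 5 heart counts against 1281 quadriceps counts gave a ratio of 524 after scaling, with an exact 95% interval of 224 to 1618 that covers counting error only. The fitted log2 fold change was 8.86 (SE 0.42, adjusted p = 1.37e-07 by edgeR's quasi-likelihood test), and it was 10.24 without sham heart library 2, which holds 4 of the 5 heart counts. Kera lies next to Lum and Dcn on chromosome 10, which were 1.07 and 0.18 lower in quadriceps on the log2 scale, the latter without passing the test.

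Fibromodulin was at 4.20, 2.48 and 0.98 CPM (with TMM scaling over all transcripts) in heart and at 31.7, 35.8 and 39.7 CPM in quadriceps. The heart libraries differed among themselves, and all quadriceps libraries were well above them. The log2 fold change was 3.79 (SE 0.38, adjusted p = 1.93e-05 by edgeR's quasi-likelihood test). Its neighbour Prelp went the other way, with 59.7, 55.9 and 43.2 CPM in heart and 25.8, 23.9 and 23.8 CPM in quadriceps. Prelp did not overlap between the tissues and had a log2 fold change of -1.11 (SE 0.13, adjusted p = 6.06e-05 by the same test).

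Biglycan was at 183, 171 and 147 CPM in heart and at 77.8, 64.5 and 81.9 CPM in quadriceps. The tissues did not overlap, and the log2 fold change was -1.16 (SE 0.13, adjusted p = 4.17e-05 by edgeR's quasi-likelihood test). Decorin was at 323, 321 and 300 CPM in heart and at 337, 248 and 246 CPM in quadriceps, where library 1 was above all heart libraries. Its log2 fold change of -0.18 had a 95% interval from -0.50 to 0.13 (adjusted p = 0.272 by the same test), which became -0.33 without sham quadriceps library 1 (adjusted p = 0.0112) and -0.92 with library totals (adjusted p = 0.00156).

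Lumican was at 53.8, 60.9 and 48.9 CPM in heart and at 33.7, 22.2 and 21.6 CPM in quadriceps. All quadriceps libraries lay below the heart libraries, with a log2 fold change of -1.07 (SE 0.18, adjusted p = 0.000478 by edgeR's quasi-likelihood test). Podocan was at 10.02, 7.43 and 7.13 CPM in heart and at 6.40, 5.35 and 5.37 CPM in quadriceps, close to each other but without overlap. Podn differed by -0.52 on the log2 scale (SE 0.16, adjusted p = 0.0172), which was -0.35 without sham heart library 1 (adjusted p = 0.0759) and -0.46 without sham quadriceps library 3 (adjusted p = 0.0610), all by edgeR's quasi-likelihood test.

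The 3 neighbours on chromosome 13 shared a wide spread in sham muscle. Osteoglycin was at 110, 88.9 and 109 CPM in heart and at 64.9, 22.2 and 34.0 CPM in quadriceps, with a log2 fold change of -1.34 (SE 0.32, adjusted p = 0.00462 by edgeR's quasi-likelihood test). Asporin, which binds calcium and TGF-beta, was at 24.1, 29.5 and 26.4 CPM in heart and at 29.1, 9.74 and 16.3 CPM in quadriceps. Osteomodulin, known from bone and tooth, was at 1.70, 1.01 and 0.77 CPM in heart and at 3.79, 0.84 and 1.41 CPM in quadriceps. In all 3 genes quadriceps library 1 was the highest and library 2 the lowest, and the tissues overlapped for Aspn and Omd.

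Neither asporin nor osteomodulin passed the test over all libraries. Aspn had a log2 fold change of -0.53 with a 95% interval from -1.23 to 0.17 (adjusted p = 0.159 by edgeR's quasi-likelihood test), which was -1.04 without sham quadriceps library 1 (adjusted p = 0.00123) and -1.25 with library totals (adjusted p = 0.0157). Omd had a log2 fold change of 0.83 with a 95% interval from -0.31 to 1.96 (adjusted p = 0.170 by the same test). It was 1.21 without sham quadriceps library 2 (adjusted p = 0.0353) and -0.07 without library 1. Sham quadriceps library 1 was 2.31 times the mean of the other two for Ogn, 2.23 times for Aspn and 3.37 times for Omd, and 1.33 times for their neighbour Ecm2. Over the higher of those libraries it was 1.91, 1.78 and 2.68 times for Ogn, Aspn and Omd. Of the other members, library 1 was 1.56 times the mean of the other libraries for Kera, 1.54 for Lum and 1.36 for Dcn. By the same measure it was 1.19 times for Podn, 1.08 for Prelp, 1.06 for Bgn and 0.84 for Fmod. Among 18896 transcripts at a mean of 1 CPM or more, 0.656% were in library 1 at 2 or more times the level of each other library, as Omd was and Ogn and Aspn were not. Markers of adipocytes also differed between these libraries, with sums of 131, 56.4 and 17.6 CPM in libraries 1, 2 and 3, and their part in the spread was not tested.

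**Figure D3:**
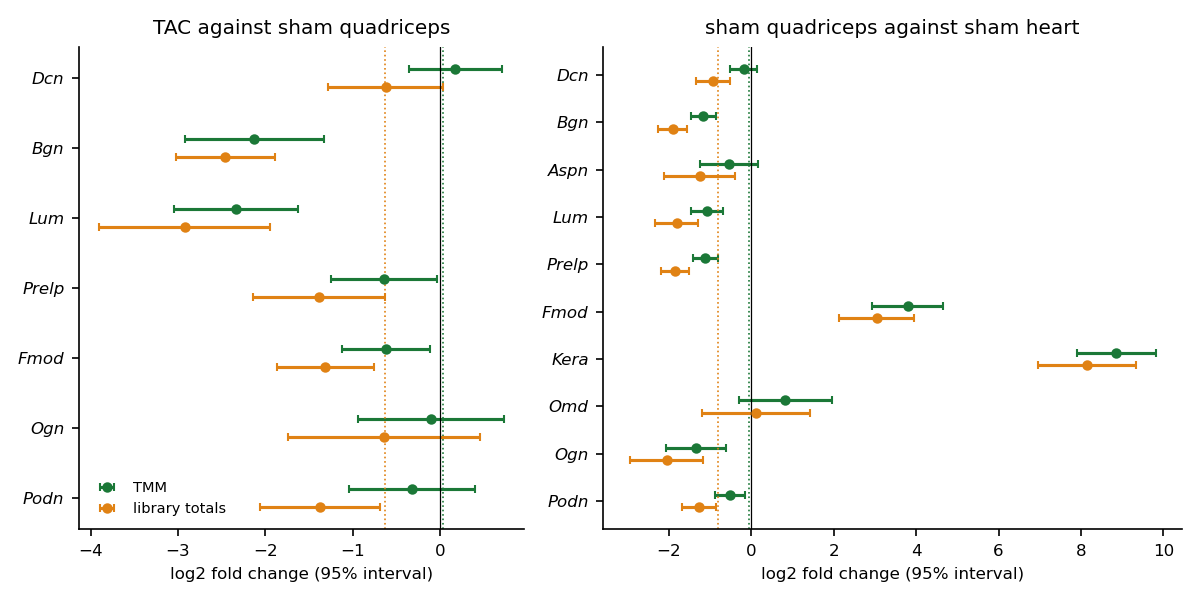
Log2 fold changes with 95% intervals from edgeR's quasi-likelihood test, for TAC against sham quadriceps (left) and sham quadriceps against sham heart (right). Green points use TMM, orange points library totals (without TAC library 4 on the left), and dotted lines mark the median of all genes tested with each scaling. Lum and Bgn on the left, and Kera and Fmod on the right, lie away from 0 and from both dotted lines.

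Within a library, the family of the heart held more biglycan and osteoglycin per decorin than that of quadriceps. Decorin took 49.2% to 51.0% of the summed counts per length of the 10 members in heart and 57.9% to 62.3% in quadriceps. Biglycan took 19.4% to 21.7% in heart and 10.7% to 15.04% in quadriceps. Fibromodulin and keratocan took 3.70% to 6.16% and 3.19% to 4.05% in quadriceps, but at most 0.421% and 0.0121% in heart. Of 8 ratios to decorin, that of Fmod was higher in quadriceps without overlap (log2 difference 4.24, 36.3% of 22956 transcripts with a count in each library) and 5 were lower without overlap (28.4%). These were Ogn (-1.28), Bgn (-0.96), Lum (-0.90), Prelp (-0.90) and Podn (-0.31). All 6 were at an exact permutation p of 0.1, the smallest 3 against 3 libraries allow. Relative to the sum of the 10 members, Fmod was higher without overlap (45.4% of transcripts) and 4 were lower without overlap (21.1%), since Podn then overlapped (log2 difference -0.06, exact permutation p = 0.8). Kera was left out of the ratios because a heart library held no count of it.

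**Figure D4:**
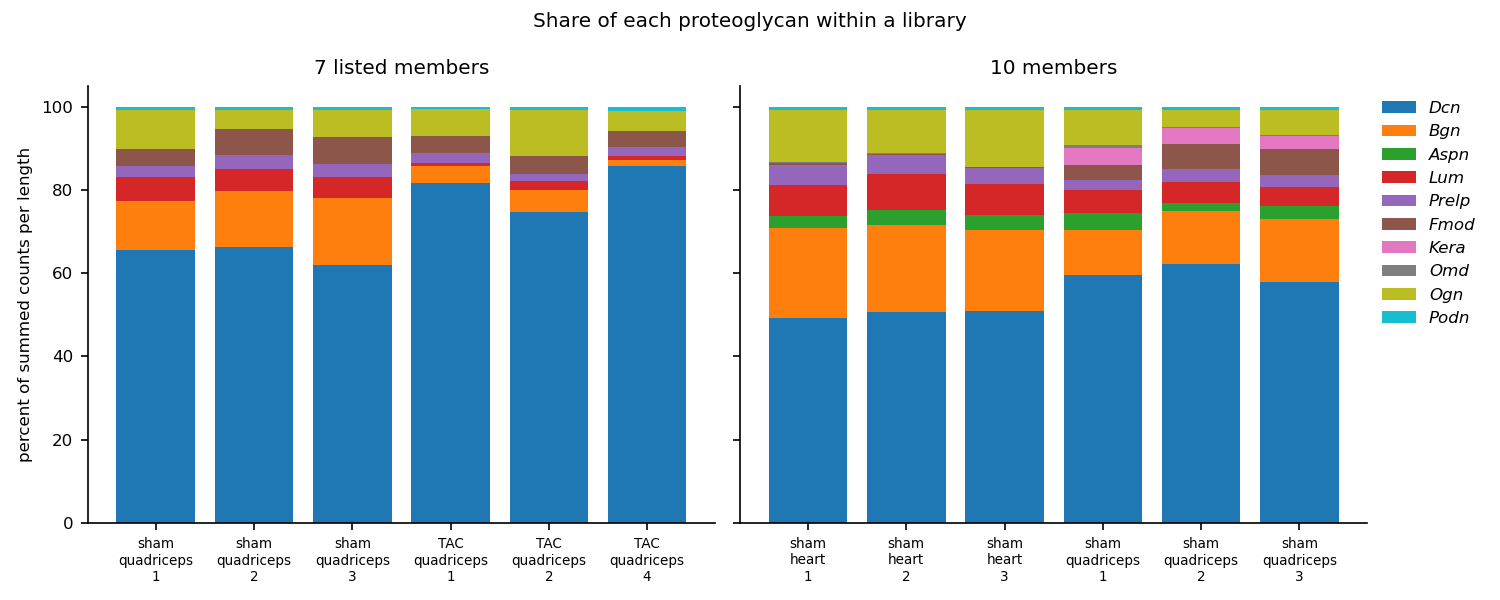
Percent of the summed counts per transcript length taken by each member within a library, for the 7 members of the TAC table (left) and all 10 members in sham heart and sham quadriceps (right). Decorin is the lowest and largest segment throughout, 74.6% or more in the TAC libraries on the left against at most 66.4% in sham, and Fmod and Kera are visible in quadriceps but not in heart on the right.

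The other leucine-rich matrix genes divided in the same comparison. Of 8 listed, 6 were tested. Chad was higher in quadriceps, at 64, 37 and 12 counts against 101, 72 and 93 (log2 fold change 2.31, adjusted p = 0.000993 by edgeR's quasi-likelihood test). Epyc, the neighbour of Kera on the far side from Lum, was lower at -3.44, with 40, 24 and 8 heart counts against 3, 0 and 0. Tsku was lower at -1.50. Ecm2, Chadl and Nyx had log2 fold changes of -0.03, -0.57 and -0.63 and did not pass, and Optc and Podnl1, with at most 7 and 1 counts in any library, were not tested.

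In each of the 5 lists of partners more genes were lower than higher in quadriceps, where of all transcripts 34.4% were lower and 32.2% higher (62.6% and 13.3% with library totals). The median member was at -0.52, against -0.06 for all transcripts. Of 12 collagen genes, 2 were higher, Col11a1 at 3.14 and Col12a1 at 2.43, and 7 were lower, with Col6a2 at -1.87 (list median -0.59). Of 8 collagen crosslinking enzymes, Lox was higher at 2.40 and 5 were lower, among them the lysyl hydroxylases Plod2 at -2.38 and Plod1 at -1.84 (list median -1.06). Of 23 genes on the list of glycosaminoglycan chain enzymes, 3 were higher and 12 lower (list median -0.43). The largest differences were those of Chpf at -2.79, the dermatan 4-sulfotransferase Chst14 at -1.98 and Chsy1 at -1.85. The lower genes include Tpst1 (-1.17) and Tpst2 (-0.43), which sulfate tyrosines and not chains. With library totals, 1 gene of the list was higher and 19 were lower.

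Among ligands and receptors, 6 of 17 were higher and 8 lower (list median -0.07). Mstn, at 9, 9 and 5 heart counts and 1965, 2430 and 1336 quadriceps counts, was higher (log2 fold change 8.96), Met was higher at 2.57, and Tgfb1, a ligand of decorin, was lower at -2.95. Of 11 proteases and enhancers, 0 were higher and 8 were lower (list median -1.01), with Tll2 at -5.29, Mmp13 at -4.47 and Pcolce at -1.39.

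Cell type markers moved with the tissues. Of 8 genes listed as tenocyte markers, 7 were higher in quadriceps, against 32.2% of all transcripts, and 0 were lower. With library totals 5 were higher and 1 lower (list median 3.82, and 3.08 with library totals). The list was led by Chodl at 6.57, Tnmd at 5.92 and Col22a1 at 4.44. Its sum was 11.0 to 14.9 CPM in heart and 139 to 141 CPM in quadriceps. In bulk tissue these transcripts cannot be assigned to tendon cells apart from muscle fibres. Comp, the cartilage oligomeric matrix protein, was at 0.70 (adjusted p = 0.0489 by edgeR's quasi-likelihood test) and at -0.04 with library totals (adjusted p = 0.908). Scx, the tendon transcription factor of that list, was at -0.03 without passing, and lower at -0.78 with library totals. Of 12 fibroblast markers, 0 were higher and 8 lower, and 12 were lower with library totals (list median -0.70), and the sum was 760 to 850 CPM in heart and 359 to 440 CPM in quadriceps. The part of tendon cells in the higher keratocan and fibromodulin, and of fibroblast number in the lower members, was not tested.

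The remaining lists followed the tissues. All 8 skeletal muscle fibre markers were higher in quadriceps and all 8 cardiomyocyte markers lower, at sums of 75608 to 104800 against 1148 to 1329 CPM and of 230 to 407 against 36631 to 39317 CPM. All 6 adipocyte markers were higher (0.489 to 1.93 CPM in heart), and so were 2 of 5 Schwann cell markers (21.4 to 25.7 CPM in heart and 41.5 to 51.5 CPM in quadriceps). All 6 endothelial markers were lower (438 to 476 CPM in heart and 134 to 153 CPM in quadriceps), as were all 5 blood markers (251 to 300 and 74.4 to 92.0 CPM) and 6 of 8 macrophage markers (70.6 to 74.5 and 34.7 to 47.9 CPM). Of 6 smooth muscle and pericyte markers, 2 were higher and 2 lower, and 0 and 4 with library totals, at sums of 1267 to 1378 and 1626 to 2092 CPM.

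The members of both comparisons can be set side by side, with the sham quadriceps libraries common to both. TMM scaling was over all transcripts tested in the heart comparison and over the listed genes only in the TAC comparison. The sizes of the log2 fold changes are therefore not compared between them. Biglycan was lower in sham quadriceps than in heart (-1.16) and lower again in TAC than in sham quadriceps (-2.13), and lumican likewise (-1.07 and -2.34). Prelp (-1.11 and -0.64), Ogn (-1.34 and -0.11) and Podn (-0.52 and -0.32) were lower than in heart and did not pass after TAC. Fibromodulin was higher than in heart (3.79) and at -0.62 after TAC without passing. Decorin passed in neither comparison with TMM (-0.18 and 0.17).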

How the data were processed

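RNA of sham heart, sham quadriceps and TAC quadriceps (3 libraries each) was isolated, poly(A) RNA was purified, and ScriptSeq v2 libraries were sequenced as single-end reads. The authors used Trim Galore for trimming, STAR for alignment (mm10) and Rsubread for counting per RefSeq transcript. Versions and strand setting are not given in the sources used here. The deposited tables hold raw counts, RPKM values and, as another value, transcript lengths. They also hold the authors' fold changes, p-values and FDR, which were not used. Of the per-sample columns, 1 was not used (an RPKM column of TAC whose number matches no sample), so settings that need RPKM or library totals had 2 TAC libraries.

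The filter of the study (over 5 counts at least 2 times) was kept, and rows were tested with edgeR 4.0.16 (R 4.3.3, TMM, quasi-likelihood, Benjamini-Hochberg over all rows tested, adjusted p under 0.05). The standard error is the absolute log2 fold change over the square root of F. Alternatives used library totals, DESeq2 1.42.0, limma 3.58.1 on log2(RPKM + 0.5), other filters, a replicate block, single libraries left out and the study's thresholds. Simulated counts had a single large fold, up or down, for changed genes and a spread set in advance, not taken from these libraries. On them the test recovered 100% of 200 changed genes of 586 in the TAC comparison, with 3.38% false calls. In the heart comparison it recovered 92.5% of 200 of 24280, with 4.64% false calls. These rates hold for the simulated settings only. Recovery of differences as small as those of the members that did not pass was not tested. Within-library ratios used an exact permutation test (scipy 1.17.1). Figures were drawn with matplotlib 3.10.9.

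The 10 members are named in every library. Of the lists of partners and markers, counts are given for all, and values for up to 3 called genes of the largest absolute log2 fold change and for all listed leucine-rich relatives. Members, lists and tests were chosen with earlier results of these data known.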

Additional observations from a re-analysis of the deposited data

How the results depend on the processing

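Lower Lum and Bgn in TAC quadriceps were called in all 13 alternatives fitted, and higher Fmod in quadriceps than in heart in all 13. The number of members lower in TAC than in sham quadriceps was 5 with library totals and 5 with limma on log2(RPKM + 0.5), against 2, and 2 to 3 with single libraries left out. The number higher in sham quadriceps than in sham heart was 1 where all libraries had to hold at least 10 counts, which removes Kera, and 2 to 3 with libraries left out. The number lower was 0 at a log2 fold change beyond -2 and an unadjusted p under 0.05, which carries over to the lower side the threshold that the study set for higher expression in quadriceps, and 4 to 7 with libraries left out. Signs turned for members that did not pass: Dcn after TAC was -0.62 with library totals, -0.62 with limma, -0.036 with the replicate block, -0.018 with the 4 numbered libraries and no block and -0.040 to 0.35 with single libraries left out, the lowest being without TAC library 4. Ogn after TAC was 0.14 with the replicate block and -0.38 to 0.31 with libraries left out, the highest without sham library 1, and Omd against heart was -0.041 with limma and -0.071 to 1.21 with libraries left out, the lowest without sham quadriceps library 1. The cause was not tested. Of 220 member values, 195 kept direction and side of the threshold, 14 passed newly, 2 no longer passed and 9 turned sign.

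Equal replicate numbers did not pair the libraries (correlations of deviations from -0.053 to 0.055 in the heart comparison and of 0.082 and -0.159 for numbers 1 and 2 in the TAC comparison). With the replicate block, 2 members were lower and 0 higher after TAC, and 2 were higher and 5 lower in quadriceps than in heart, the numbers without it. The exact interval of Kera covers counting error only, the other intervals rest on the spread between libraries, and 3 libraries a group limit each comparison.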

Other observations

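In 4 genes chosen after their values were seen, sham heart library 1 was the highest and library 3 the lowest. Fmod had 200, 125 and 42 counts, Chad 64, 37 and 12, Epyc 40, 24 and 8 and Comp 110, 78 and 43 in sham heart libraries 1, 2 and 3, at library totals of 37057358, 38382751 and 33102826 counts. Of other leucine-rich genes, Omd (81, 51 and 33 counts), Podn (477, 374 and 306), Bgn (8735, 8584 and 6291) and Prelp (2845, 2812 and 1854) also had this order. Lum (2563, 3065 and 2101 counts), Aspn (1150, 1483 and 1133) and Ecm2 (1182, 1380 and 1132) did not. No label divides the heart libraries, and the difference between them was not tested.

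The transcripts of one gene gave nearly the same values. The second transcript of Dcn had a log2 fold change of -0.12 between sham quadriceps and heart, against -0.18 for the leading one, and that of Aspn -0.50 against -0.53. The other 2 transcripts of Podn were at -0.50 and -0.53, against -0.52. Reads shared by the transcripts of a gene could not be assigned to one of them from the tables.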
